A study of Mus musculus with 91 samples.

Results

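Livers of vehicle-treated mice were compared between one control cohort of a compound given by injection and the cohorts of compounds given by gavage. Co4 was the vehicle cohort of CITCO, an agonist of the human nuclear receptor CAR that was injected daily into the abdominal cavity at 10 mg/kg. Co1 was the vehicle cohort of Wy-14643, an agonist of the fatty acid receptor PPARα given daily by gavage at 100 mg/kg. Co5 was the vehicle cohort of pioglitazone, an agonist of PPARγ also given by gavage at 100 mg/kg. The 13 arrays were chosen by their titles, with 5 mice in Co4, 4 in Co1 and 4 in Co5, out of 91 arrays in 19 groups of the series. All 13 mice were adult C57BL males on a C57BL/6J background, carried no engineered allele, and received carboxymethylcellulose (CMC) at 0 mg/kg of compound for 28 days. The route belongs to the compound each cohort was matched to, and the labels do not state the route of the vehicle itself. Groups were planned as 5 mice assigned at random, of which 4 each were analysed here for Co1 and Co5. Livers were taken after a rising concentration of carbon dioxide, and each array held RNA of 1 liver. The sources used here do not give the time of day of dosing and necropsy. Because each cohort was 1 group, the route and any other difference between cohorts cannot be told apart.

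The liver answers inflammation anywhere in the body with the acute phase response, in which hepatocytes that sense cytokines such as interleukin 6 switch on secreted defence proteins, including serum amyloid A, lipocalin 2 and orosomucoid, and metal-binding metallothioneins. Liver macrophages, called Kupffer cells when resident, produce and respond to such cytokines. Hepatocyte transcripts also follow the circadian clock, feeding and glucocorticoids, so that the hour of sampling and recent food intake shape the liver transcriptome in the absence of any compound.

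Medians of the 13 arrays over 34945 probe sets with a single gene symbol ran between 5.532 and 5.590 on the log2 scale, which the authors' normalization largely fixes. The mean correlation of an array with the others of its cohort was between 0.984 and 0.991. All 16 hepatocyte markers measured failed the test of Co4 against the mean of Co1 and Co5, and their mean per array was 13.29 to 13.48 in Co4, 13.24 to 13.40 in Co1 and 13.18 to 13.40 in Co5. Alb, the gene of albumin, lay at 15.13 to 15.22 in Co4, against 15.10 to 15.14 in Co1 and 15.14 to 15.15 in Co5. Hepatocyte transcripts were thus abundant in every cohort, as the tissue label says.

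Of the 34945 probe sets, 4134 (11.8%) passed an adjusted p of 0.05 between Co4 and the equally weighted mean of Co1 and Co5, in a limma model over all 91 arrays. Higher in Co4 were 2424 (6.94%) and lower 1710 (4.89%). With each gene given by 1 probe set, 2274 of 18193 genes passed (12.5%), 1260 of them higher (6.93%) and 1014 lower (5.57%). A difference of at least 2-fold was held by 133 of the higher and 30 of the lower genes. All 5 Co4 values lay above all 8 values of Co1 and Co5 in 344 genes (1.89%) and below them in 280 (1.54%). Without replicate 4 of Co4 the count of probe sets was 2577, and without replicate 5 it was 2696. With only the groups compared it was 3036, and with the cohort as a random block in these groups it was 2496 (7.14%). The block had a fitted correlation within cohorts of −0.004. With 1 cohort of an injected compound, that fit cannot allow for variation between such cohorts. Differences are given as log2 values of Co4 minus the mean of Co1 and Co5, with the standard error of the fit, unless another pair is named.

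Acute phase genes held the largest differences in the comparison. Lcn2, the gene of lipocalin 2, which withholds iron from bacteria by binding their siderophores, stood at 13.35, 13.18, 11.34, 13.94 and 12.96 in the Co4 livers, against 5.49, 6.30, 5.21 and 4.70 in Co1 and 10.79, 4.71, 6.62 and 5.01 in Co5. Every Co4 liver was above every gavage-cohort liver, and replicate 1 of Co5 was the only one of those that came near. The difference was 6.85 ± 0.879 with an adjusted p of 7.46e-08. Most gavage-cohort values of Lcn2 lay near the array median, where a level is not clearly above background, so no fold is given. Saa2, a serum amyloid A gene whose product joins high-density lipoprotein in inflammation, read 14.28, 14.56, 13.90, 14.62 and 14.26 in Co4, against 6.76, 9.03, 7.32 and 6.84 in Co1 and 12.29, 6.70, 10.46 and 6.66 in Co5. The Co4 values were packed within 1 unit, whereas Co5 split between a pair of low livers and replicates 1 and 3. Its difference was 6.07 ± 0.973 (adjusted p 8.4e-06).

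Saa1 and Saa3 passed as well, and Saa4 did not. Saa1, the close relative of Saa2, was 14.49 to 14.74 in Co4, against 8.16 to 10.87 in Co1 and 8.33 to 13.80 in Co5, a difference of 4.68 ± 0.826 (adjusted p 3.94e-05). The Co4 values of Saa1 and Saa2 lay near the top of the table, whose highest value was 15.34, and signal shared between these close copies makes the single members uncertain. Saa3, which macrophages also express, was 13.64, 12.65, 11.71, 13.98 and 13.66 in Co4, against 8.37, 8.89, 8.20 and 8.21 in Co1 and 9.86, 7.74, 8.43 and 7.80 in Co5. The gap between the lowest Co4 liver and the highest gavage-cohort liver was wide for this gene, and its difference of 4.70 ± 0.497 had an adjusted p of 4.19e-10. Saa4, the constitutively expressed member of the family, differed by 0.26 (adjusted p 0.45).

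Orm2, the gene of a plasma carrier protein of the orosomucoid family, was 12.43, 12.49, 11.75, 12.83 and 12.30 in Co4, against 6.12, 8.10, 6.32 and 6.26 in Co1 and 11.31, 5.69, 7.52 and 5.67 in Co5. Again replicate 1 of Co5 stood apart from the rest of its cohort, and the groups did not overlap. The difference was 5.24 ± 0.797 (adjusted p 3.51e-06). Leaving out any 1 of the 13 arrays kept Lcn2, Saa1, Saa2, Saa3 and Orm2 past the threshold, with differences between 6.51 and 7.52 for Lcn2 and between 5.67 and 6.61 for Saa2.

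The proximal promoters of these genes are shown because the results turn on them. Each is the stretch of 250 bases before the gene's start, 5′ to 3′ on the gene's strand, from RefSeq on GRCm38.p6. The window is chr7:46751583-46751832 on the plus strand for Saa2, chr7:46742981-46743230 on the minus strand for Saa1, chr7:46715677-46715926 on the minus strand for Saa3, chr2:32387740-32387989 on the minus strand for Lcn2 and chr4:63362199-63362448 on the plus strand for Orm2. Capitals mark the letters TTGCNCAA, a core that C/EBP factors are known to bind, searched on both strands, and the Saa3 window held no match to these letters.
Saa2: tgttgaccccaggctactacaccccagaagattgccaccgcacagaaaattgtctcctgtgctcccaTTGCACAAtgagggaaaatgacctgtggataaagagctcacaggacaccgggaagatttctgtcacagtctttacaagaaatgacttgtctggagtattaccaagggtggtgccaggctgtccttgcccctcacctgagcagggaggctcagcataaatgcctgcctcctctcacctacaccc
Saa1: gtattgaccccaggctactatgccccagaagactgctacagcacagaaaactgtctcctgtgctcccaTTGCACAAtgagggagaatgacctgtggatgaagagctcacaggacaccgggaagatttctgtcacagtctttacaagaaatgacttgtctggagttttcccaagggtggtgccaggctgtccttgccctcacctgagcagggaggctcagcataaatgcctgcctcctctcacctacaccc
Saa3: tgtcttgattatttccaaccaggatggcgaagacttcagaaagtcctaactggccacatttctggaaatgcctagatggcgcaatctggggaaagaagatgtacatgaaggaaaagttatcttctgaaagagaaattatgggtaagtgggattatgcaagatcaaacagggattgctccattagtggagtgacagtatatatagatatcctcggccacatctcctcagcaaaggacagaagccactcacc
Lcn2: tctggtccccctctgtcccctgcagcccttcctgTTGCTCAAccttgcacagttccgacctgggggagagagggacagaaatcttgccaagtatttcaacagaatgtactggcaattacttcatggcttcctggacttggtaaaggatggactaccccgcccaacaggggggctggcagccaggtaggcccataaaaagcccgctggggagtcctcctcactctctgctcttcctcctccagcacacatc
Orm2: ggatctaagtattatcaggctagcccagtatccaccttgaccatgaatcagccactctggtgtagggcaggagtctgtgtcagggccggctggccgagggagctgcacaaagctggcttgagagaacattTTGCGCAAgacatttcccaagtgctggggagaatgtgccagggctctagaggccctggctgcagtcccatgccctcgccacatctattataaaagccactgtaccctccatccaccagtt
The first base of the motif lay 183 bases before the start in Saa2, 182 in Saa1, 216 in Lcn2 and 120 in Orm2. Aligned over their length, the Saa2 and Saa1 promoters shared 238 bases (94.8% of positions), against 152 (52.4%) for Saa2 and Saa3. Among the 20 promoters of acute phase genes that were higher in Co4, 6 held TTGCNCAA (30%). Over all measured acute phase genes, passing or not, 10 of 29 promoters held it (34.5%), against 857 of all 32851 promoters (2.61%). For TTCNNNGAA, the core bound by STAT factors, the counts were 5 of 20 (25%), 7 of 29 (24.1%) and 2306 of all (7.02%). The share was thus not higher among the members that passed than in the whole list for TTGCNCAA. A match is a description of letters and does not show binding.

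**Figure D1:**
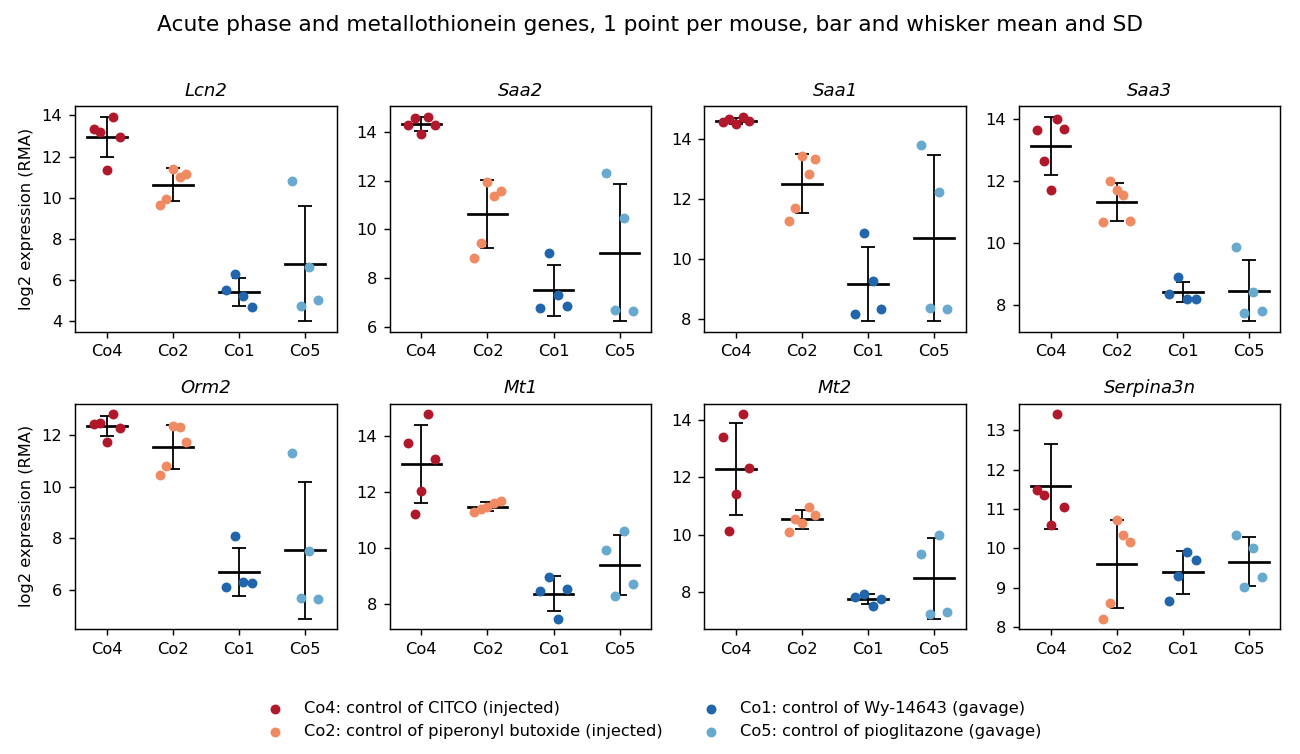
Each point is the log2 expression of 1 liver in Co4, Co2, Co1 or Co5 (x axis) for 8 acute phase and metallothionein genes, with the mean as a bar and the SD as whiskers; Co2 is the vehicle cohort of injected piperonyl butoxide. Lcn2 lies at 11.34 to 13.94 in Co4, and replicate 1 of Co5 is the highest point of the gavage cohorts for Lcn2 (10.79), Saa2 (12.29) and Orm2 (11.31).

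Of 32 measured genes of the acute phase list, 22 were higher in Co4 and 0 lower, with a median difference of 0.73, against 6.93% higher and 5.57% lower of all genes and a median of −0.03. When single arrays were left out 16 to 23 of the 32 were higher, under the other settings 18 to 22, and 15 were above every gavage-cohort liver. The metallothionein genes Mt1 and Mt2, which bind zinc and copper, were among the largest. Mt2 was 13.39, 10.12, 11.43, 14.20 and 12.33 in Co4, against 7.83, 7.93, 7.51 and 7.78 in Co1 and 9.34, 7.26, 10.00 and 7.33 in Co5. It varied widely within Co4, whose lowest liver was just above the highest of Co5, and its difference was 4.17 ± 0.754 (adjusted p 5.83e-05). Mt1 differed by 4.11 ± 0.685 (adjusted p 1.58e-05). Of 17 metallothionein and iron genes measured as a list of their own, 3 were higher (Mt1, Mt2 and Cp) and 0 lower, with a median of 0.15. Serpina3n, a protease inhibitor gene, was 10.60 to 13.42 in Co4, against 8.65 to 9.90 in Co1 and 9.02 to 10.34 in Co5, and differed by 2.06 ± 0.393.

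Smaller differences past the threshold were found for Apcs (1.80), the gene of the mouse pentraxin serum amyloid P, Fgl1 (1.33), a fibrinogen-like hepatokine, Steap4 (1.30), a metal reductase, Orm1 (1.18) and Lrg1 (1.17), a leucine-rich plasma glycoprotein. The list's abundant plasma proteins differed by less than 1 unit, as in Itih4 (0.79), Crp (0.61), Itih3 (0.59), Hp (0.38), Hpx (0.37), Fgg (0.30), Fgb (0.28), Fga (0.23) and Cp (0.20), all past the threshold. The 10 members that did not pass were Cd14 (0.92), Orm3 (0.74), A2m (0.72), Lbp (0.59), Saa4 (0.26), Itih2 (0.24), Ngp (0.21), Il1rn (0.12), Sod2 (0.05) and Hamp (−0.26). Hamp, the gene of the iron hormone hepcidin, had an adjusted p of 0.61. Of 18 negative acute phase genes, whose products are known to decline in inflammation, 2 were higher and 1 lower: Ahsg (0.34 ± 0.0907), Serpina6 (0.79 ± 0.175), the gene of corticosteroid-binding globulin, and Cyp3a11 (−0.20 ± 0.0466).

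Among 27 genes of interleukin 6 and STAT3 signalling, 5 were higher and 0 lower, with a median of 0.30. Socs3, a feedback inhibitor of that signalling, was 11.86, 10.71, 9.26, 11.37 and 8.73 in Co4, against 8.25 to 8.59 in Co1 and 8.24 to 10.13 in Co5, and differed by 1.68 ± 0.525 (adjusted p 0.0233). The Co4 livers spread over 3 units and overlapped with Co5. Cebpb (0.61), Cebpd (1.05), Atf3 (0.78) and Tnfrsf1a (0.48) were the other 4. Cebpd, a C/EBP factor induced in the acute phase, was 10.02 in replicate 4 of Co4 and 6.56 to 7.57 in the other Co4 livers, and its difference was 0.48 without that array. Without replicate 4 of Co4, 0 of the 27 genes passed. Of 26 complement and coagulation genes, 8 were higher and 0 lower (median 0.14), led by Pros1 (0.82 ± 0.146), the gene of protein S, Serpind1 (0.59), F13b (0.53) and Cfb (0.53), and 5 were higher without replicate 5 of Co4.

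Macrophage genes were the largest set of cell type markers that was higher in Co4. Of 19 Kupffer cell and macrophage markers, all measured, 10 were higher and 0 lower, with a median difference of 1.00, and none was free of overlap between the cohorts. Marco, a scavenger receptor gene, was 8.41, 6.70, 7.86, 9.25 and 10.18 in Co4, against 6.35, 5.77, 5.28 and 6.13 in Co1 and 6.85, 5.40, 5.72 and 5.43 in Co5. Only replicate 2 of Co4 fell within the range of the gavage cohorts, and the difference was 2.61 ± 0.451 (adjusted p 2.79e-05). C1qb, a subunit of the first complement component that macrophages make, was 8.87, 7.24, 9.72, 9.24 and 9.89 in Co4, against 6.84 to 7.59 in Co1 and 6.46 to 8.41 in Co5. The same replicate was the low one, and the difference was 1.77 ± 0.303. Cd5l (1.88), Vsig4 (1.66), C1qc (1.56), Lyz2 (1.38), C1qa (1.33), Mpeg1 (1.25), Ctss (1.23) and Cd68 (0.92) also passed. Clec4f, a lectin restricted to Kupffer cells in mice, differed by 0.55 ± 0.287 with a 95% interval of −0.02 to 1.12 (adjusted p 0.226), and Timd4, another resident marker, by 0.48 (adjusted p 0.28).

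The mean of the 19 markers per liver ran between 7.03 and 8.96 in Co4, between 6.97 and 7.44 in Co1 and between 6.40 and 8.10 in Co5. It was 8.09 to 8.95 in the corn oil group and 8.61 to 9.03 in the water group of the series, described further on. In bulk liver RNA, fewer cells of a type and less RNA per cell cannot be told apart. Without single arrays 9 to 15 of the markers were higher. Clec4f, a defining marker, was 7.18 to 9.12 in Co4, against 7.41 to 8.20 in Co1 and 7.19 to 8.88 in Co5, and the part of macrophage number in the acute phase differences was not tested. Clec7a and Vcam1, which belong to no list and were named for the size of their difference, were higher too. Clec7a, a receptor for fungal glucans on myeloid cells, was 8.06 to 10.14 in Co4, against 6.53 to 7.30 in Co1 and 6.01 to 7.62 in Co5 (2.28 ± 0.308). Vcam1, an adhesion molecule for leukocytes, was 7.23 to 10.12 in Co4, against 5.56 to 6.36 in Co1 and 5.78 to 7.15 in Co5 (2.87 ± 0.400). Neither overlapped between the cohorts, and 1 of 2 further probe sets of Vcam1 shared its direction. Lgals3, the gene of galectin 3, differed by 2.26 ± 0.364, and its lowest Co4 liver, at 6.91, was below the highest of Co5, at 7.14.

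**Figure D2:**
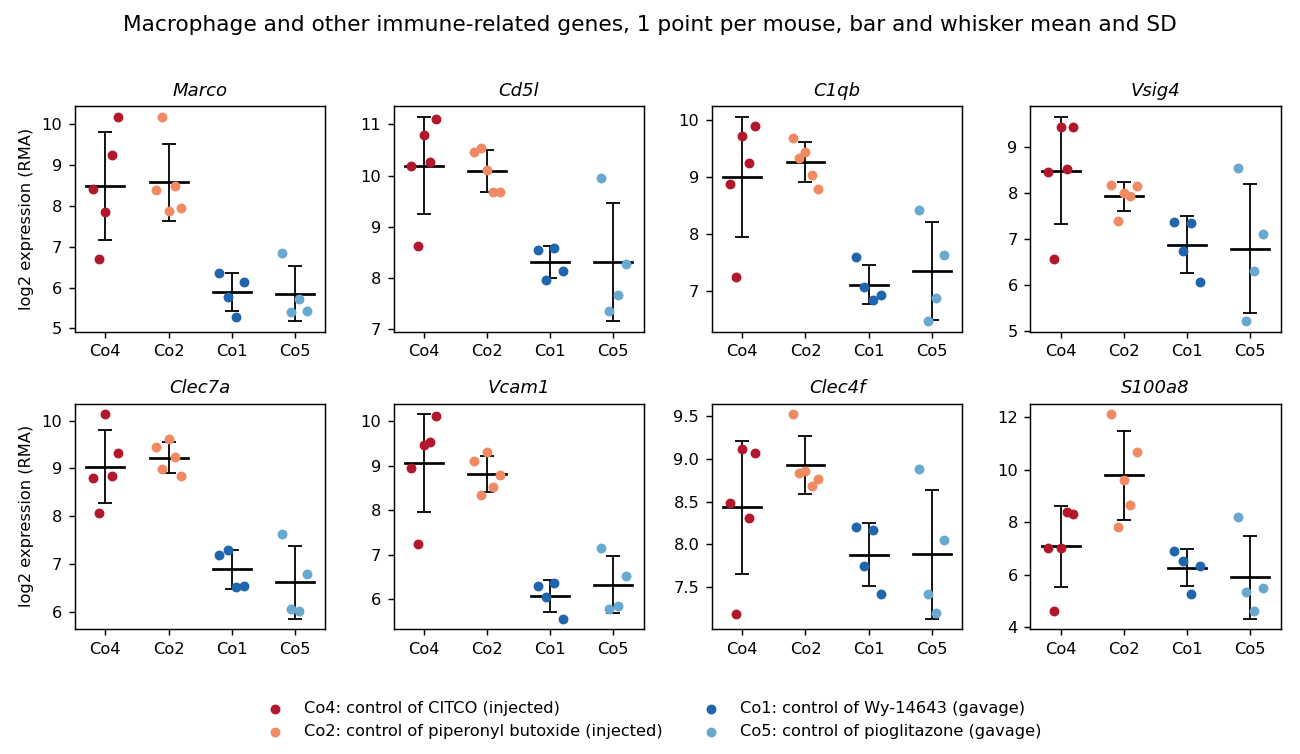
Log2 expression per liver (y axis) of 8 macrophage, adhesion and neutrophil genes in Co4, Co2, Co1 and Co5 (x axis), with the mean and SD. Replicate 2 of Co4 is the lowest Co4 point for Marco (6.70), C1qb (7.24), Clec4f (7.18) and S100a8 (4.61).

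Markers of other blood cells were mixed. Of 13 neutrophil markers only Lcn2, which hepatocytes also make, was higher, a share near the 6.93% of all genes. The granule genes S100a8 (0.99, 95% interval −0.47 to 2.45) and S100a9 (0.99) did not pass. The mean of the neutrophil list was 5.64 to 6.19 in Co4, against 5.09 to 5.39 in Co1 and 4.80 to 5.91 in Co5, with Lcn2 among its members, and the part of neutrophils in the acute phase differences was not tested. Of 12 monocyte and peritoneal macrophage markers 5 were higher, namely Saa3, Prg4 (1.40 ± 0.336), the gene of lubricin, Cd44 (0.87 ± 0.293), Fn1 (0.46) and F10 (0.30). When single arrays were left out, 2 to 6 were higher. Saa3 is a member of the acute phase list too, and the 7 that did not pass included Chil3 (adjusted p 0.268). Which cells the 5 transcripts came from was not tested. Cd44 had an adjusted p of 0.0382 and lost its call when any 1 of 8 arrays was left out, and Fn1 when any 1 of 6 was.

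Lymphocyte genes passed at a share near or below that of all genes (6.93% higher and 5.57% lower). Of 14 T and NK cell markers 1 was higher, the chemokine gene Ccl5 (0.86), and 1 lower, Cd4 (−0.28). Ccl5 lost its call when any 1 of 7 arrays was left out and Cd4 when any 1 of 9 was, while Cd3e differed by −0.13 (adjusted p 0.513). None of 12 B and plasma cell markers and none of 11 antigen presentation genes passed, and H2-Aa, an MHC class II gene, had a 95% interval of −0.67 to 0.66. Of 21 interferon response genes 3 were higher, and Cxcl9, a chemokine gene induced by interferon gamma, was 8.86, 8.88, 8.75, 9.77 and 10.95 in Co4, against 6.97 to 8.64 in Co1 and 6.59 to 7.71 in Co5. All Co4 livers were above the others for Cxcl9, with a difference of 1.78 ± 0.414 (adjusted p 0.00166). Usp18 (0.91) and the guanylate-binding protein gene Gbp2 (1.08) were the remaining pair, and Gbp2 was 0.61 without replicate 5 of Co4 and then did not pass.

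Endothelial genes that passed were lower in Co4. Of 14 endothelial markers 3 were lower and 0 higher, with a median of −0.40 and all 14 differences below 0. Vwf, the gene of von Willebrand factor, was 4.84 to 5.85 in Co4, against 5.67 to 6.39 in Co1 and 5.80 to 6.34 in Co5 (−0.79 ± 0.225, adjusted p 0.0111), and Tek (−0.71) and Eng (−0.52) were the others. Without replicate 4 of Co4, 1 of the 14 passed. Of 18 stellate cell and matrix genes only Ecm1 was lower (−0.71 ± 0.228). Tek and Ecm1 each lost the call when any 1 of 5 arrays was left out. None of 5 cholangiocyte, 10 mesothelial, 14 pancreas, gut, fat and muscle, or 6 red blood cell markers passed. Msln, the defining mesothelial gene of the organ's surface, was 4.00 to 4.22 in Co4, against 4.30 to 4.93 in Co1 and 4.02 to 4.59 in Co5.

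Clock genes differed between the cohorts in both directions. Of 18 measured genes 10 were higher and 3 lower in Co4, with 9 to 10 higher and 3 lower when single arrays were left out. Arntl, which encodes BMAL1, the activator of the clock, was 5.25, 5.78, 6.10, 5.91 and 5.52 in Co4, against 7.40, 7.09, 6.89 and 6.39 in Co1 and 7.70, 7.95, 8.44 and 7.12 in Co5. All Co4 livers were below all others, and Co5 reached higher than Co1. The difference was −1.66 ± 0.217 (adjusted p 1.19e-07). Its partner gene Clock (−0.58) and the repressor gene Cry1 (−0.95) were the other members that were lower.

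Dbp, an output transcription factor driven by BMAL1, was 12.15, 11.95, 11.82, 9.95 and 12.11 in Co4, against 8.48, 9.40, 10.67 and 11.39 in Co1 and 8.23, 7.39, 6.27 and 8.98 in Co5. Replicate 4 of Co4 was far below its cohort and within the range of Co1. The difference was 2.74 ± 0.415 (6.69-fold, adjusted p 3.2e-06). Ciart, a repressor of the clock, was 7.86, 7.08, 7.01, 8.22 and 7.79 in Co4, against 5.53, 6.00, 6.03 and 6.41 in Co1 and 5.17, 5.33, 5.88 and 5.70 in Co5, and the groups did not overlap (1.84 ± 0.251). Usp2, the gene of a ubiquitin-specific protease under clock control, differed by 1.75 ± 0.296 and the period gene Per1 by 1.53 ± 0.297. The rest of the higher genes were Per3 (1.47), Noct (1.44), Per2 (1.43), Tef (1.01), Nr1d2 (0.99) and Cry2 (0.79). Nr1d1, which encodes REV-ERBα, did not differ past the threshold, with a 95% interval of −0.34 to 0.33.

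The Ciart promoter is printed as an example of a clock gene with matches to CACGTG, the E-box that BMAL1 and CLOCK are known to bind. The window is chr3:95882229-95882478 on the minus strand, from RefSeq on GRCm38.p6. Capitals mark the E-boxes, which began 116, 58 and 44 bases before the start and read alike on both strands.
Ciart: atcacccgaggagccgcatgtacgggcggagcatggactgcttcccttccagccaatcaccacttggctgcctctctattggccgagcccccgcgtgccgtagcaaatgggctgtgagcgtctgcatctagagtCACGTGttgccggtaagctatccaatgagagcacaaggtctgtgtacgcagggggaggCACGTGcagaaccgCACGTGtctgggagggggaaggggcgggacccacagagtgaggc
Of 11 promoters of clock genes that were higher in Co4, 4 held the E-box (36.4%), from 3 genes. Over all measured clock genes 6 of 22 promoters held it (27.3%), against 1978 of all 32851 promoters (6.02%). None of the 20 promoters of the higher acute phase genes held it.

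**Figure D3:**
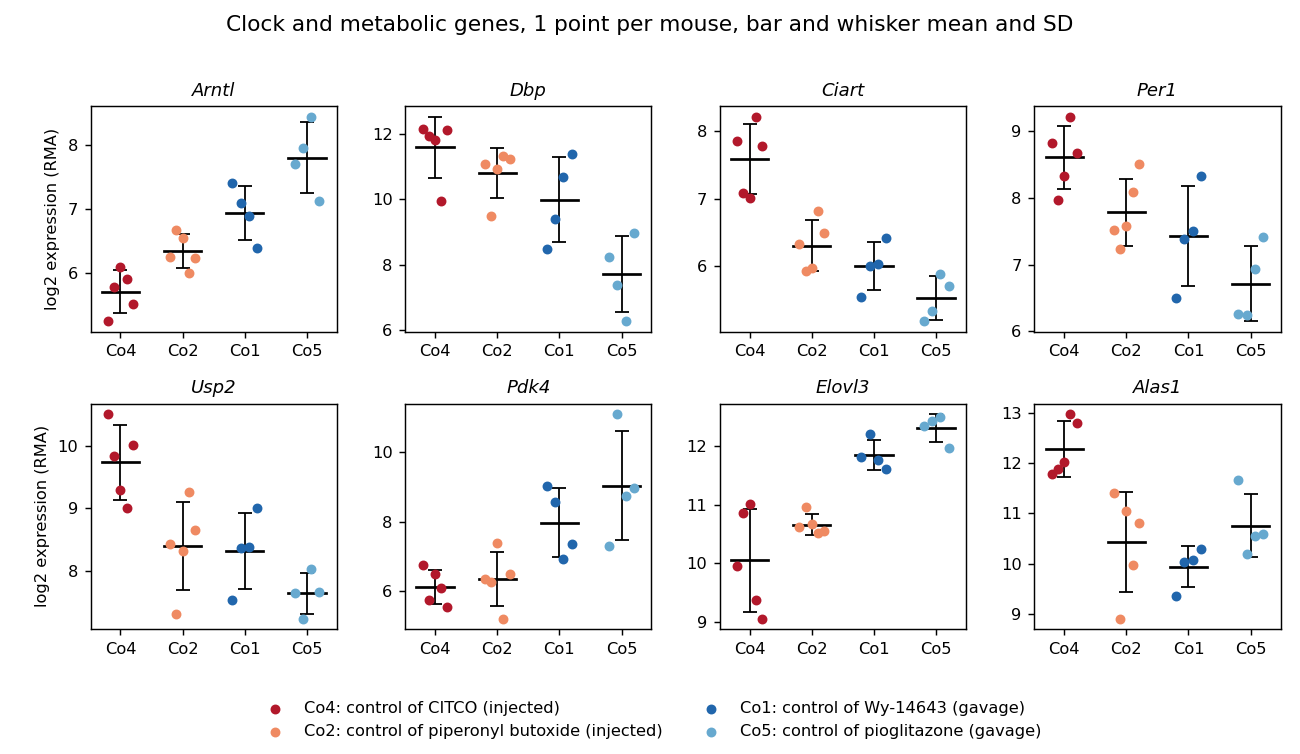
Log2 expression per liver (y axis) of 5 clock genes and of Pdk4, Elovl3 and Alas1 in Co4, Co2, Co1 and Co5 (x axis), with the mean and SD. Arntl is at 5.25 to 6.10 in Co4, below the 6.39 to 7.40 of Co1 and the 7.12 to 8.44 of Co5, and Dbp has 1 low Co4 liver at 9.95.

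Glucocorticoid response genes were higher in Co4 in 6 of 18 cases and lower in 0. Besides Lcn2, Mt2 and Per1, which belong to other lists too, these were Lpin1, Fkbp5 and Errfi1. Lpin1, a phosphatidate phosphatase gene induced by fasting and glucocorticoids, was 10.73 to 11.95 in Co4, against 8.63 to 9.62 in Co1 and 9.41 to 9.95 in Co5 (1.65 ± 0.393, adjusted p 0.0021). Fkbp5, a chaperone gene of the glucocorticoid receptor, was 11.51 in replicate 4 of Co4 and 8.82 to 9.43 in the other 4, against 7.96 to 8.24 in Co1 and 8.21 to 9.04 in Co5. Its difference was 1.22 ± 0.286, and 0.74 without that replicate. Pfkfb3, which encodes an activator of glycolysis, was 9.43 in the same replicate and 6.82 to 7.39 in the others, against 4.60 to 5.51 in Co1 and 4.71 to 5.90 in Co5 (2.38 ± 0.357).

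Fasting and gluconeogenesis genes did not move together. Pdk4, which encodes a kinase that spares glucose by blocking pyruvate dehydrogenase, was 6.75, 5.75, 6.49, 6.08 and 5.55 in Co4, against 9.04, 8.58, 6.94 and 7.35 in Co1 and 7.31, 11.11, 8.75 and 8.98 in Co5. It was lower in every Co4 liver than in any gavage-cohort liver, and its difference of −2.38 ± 0.439 (adjusted p 7.91e-05) was the largest downward by the rule for named genes. Some Co4 values of Pdk4 lay near the array median, where a level is not clearly above background, so no fold is given. Pck1 (0.06, 95% interval −0.15 to 0.28) and G6pc (−0.06, −0.75 to 0.64), the defining enzymes of gluconeogenesis, did not pass, nor did Fgf21, a fasting hormone gene (−0.63, −1.78 to 0.52). Fgf21 was 7.0 to 9.03 in Co4, against 6.74 to 7.71 in Co1 and 7.69 to 11.91 in Co5. In the list of 15, Lpin1, Asns (1.55 ± 0.490), the gene of asparagine synthetase, and Cpt1a (0.37) were higher.

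Elovl3 and 6 of 24 PPARα targets were lower in Co4. Elovl3, a fatty acid elongase gene with clock and hormone control in liver, was 9.95, 10.86, 11.01, 9.36 and 9.05 in Co4, against 11.82, 12.20, 11.76 and 11.61 in Co1 and 12.35, 12.43, 12.50 and 11.97 in Co5. The groups did not overlap, and the Co4 livers spread over about 2 units (−2.04 ± 0.495, adjusted p 0.00267). None of the 24 PPARα targets was higher, and their median was −0.35. The lower ones were Vnn1 (−1.29 ± 0.313), a pantetheinase gene, Cd36 (−1.01 ± 0.288), a fatty acid carrier gene, Pex11a (−0.69 ± 0.162), which divides peroxisomes, Acot2 (−0.66), Acaa1b (−0.39) and Ech1 (−0.36). Cyp4a14, the target with the widest range, was 9.27 to 12.02 in Co4, against 11.28 to 12.47 in Co1 and 10.05 to 13.21 in Co5 (−1.26, 95% interval −2.71 to 0.20). Leaving out replicate 4 or 5 of Co4 or replicate 2 of Co5 left 3 of the 24 lower.

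Sterol and bile acid genes were mixed. Of 25 sterol and fatty acid synthesis genes 5 were higher, Fdps (1.10 ± 0.277) and Cyp51 (0.88 ± 0.184) of cholesterol synthesis, Thrsp (1.10 ± 0.298), a lipogenic regulator gene, Elovl6 (0.70) and Sqle (0.64), and 2 were lower, Elovl3 and Insig2 (−0.73 ± 0.152), which retains the SREBP complex in the endoplasmic reticulum. Without replicate 4 of Co4, 2 were higher, and without replicate 5, 3. Another probe set of Fdps did not share its direction. Cyp8b1, the sterol 12-hydroxylase gene that sets the amount of cholic acid, was 9.33, 11.48, 10.83, 10.51 and 10.81 in Co4, against 11.69 to 11.92 in Co1 and 11.98 to 12.06 in Co5. All Co4 values were below the narrow ranges of the gavage cohorts (−1.30 ± 0.283, adjusted p 0.000753). Of 16 bile acid genes, Cyp27a1 was higher (0.46) and Abcb4 was lower (−0.45) besides Cyp8b1.

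Of 24 targets of the xenobiotic receptors CAR and PXR, 2 were higher and 2 lower, a share near that of all genes. Alas1, the rate-limiting enzyme gene of heme synthesis, was 11.79, 11.88, 12.02, 12.99 and 12.81 in Co4, against 9.36, 10.03, 10.08 and 10.29 in Co1 and 11.66, 10.20, 10.56 and 10.59 in Co5. The lowest Co4 liver was just above replicate 1 of Co5 (1.95 ± 0.396, adjusted p 0.000316). Cyp3a13 was higher by 0.82 ± 0.192, and Ces2a (−0.32) and Cyp3a11 (−0.20) were lower. Of 18 AhR and NRF2 targets Tiparp (0.66) was higher and Gclc (−0.64) lower, and neither passed without replicate 4 of Co4.

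Other lists held differences too, against 6.93% higher and 5.57% lower of all genes. Of 23 growth hormone and sex-biased genes, Cish (1.62 ± 0.526), a cytokine signalling inhibitor gene, and Trim24 (1.03 ± 0.250) were higher, and Bcl6 (−1.94 ± 0.529), a repressor of female-biased genes in liver, and Elovl3 were lower. Cish lost its call when any 1 of 7 arrays was left out and Bcl6 when either of 2 was. Bcl6 was 10.07, 8.67, 7.44, 9.25 and 7.39 in Co4, against 10.44 to 10.84 in Co1 and 9.55 to 10.70 in Co5, with 1 Co4 liver inside the range of the others. Of 23 proliferation genes 5 were higher, all of replication or the entry into it: Mcm5 (1.25 ± 0.256), Mcm6 (1.00 ± 0.220), Pcna (0.72 ± 0.137), Ccne1 (0.52) and Ccne2 (0.48). Mki67, which marks cycling cells, differed by 0.54 with a 95% interval of −0.08 to 1.17. Leaving out replicate 3 of Co4 or replicate 3 of Co1 left 3 of the 23 higher. Of 2 further probe sets each of Mcm5, Trim24, Fkbp5 and Cd36, 1 shared the direction of the one named, and the only further probe set of Cyp27a1 and of Gsta3 did not.

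Of 21 unfolded protein and heat shock genes 3 were higher, Atf3, Herpud1 (0.69) and Atf4 (0.37), and 3 lower, Creld2 (−1.16 ± 0.247), Hspb1 (−0.84 ± 0.229) and Manf (−0.54). Of 21 urea cycle and amino acid genes Got1 (1.09 ± 0.292), Gnmt (0.75 ± 0.151) and Mat1a (0.50 ± 0.136) were higher and Otc (−0.26) lower. Gnmt and Mat1a encode enzymes of methionine metabolism. Without replicate 4 of Co4, 1 of the unfolded protein list and 1 of the amino acid list were higher.

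**Figure D4:**
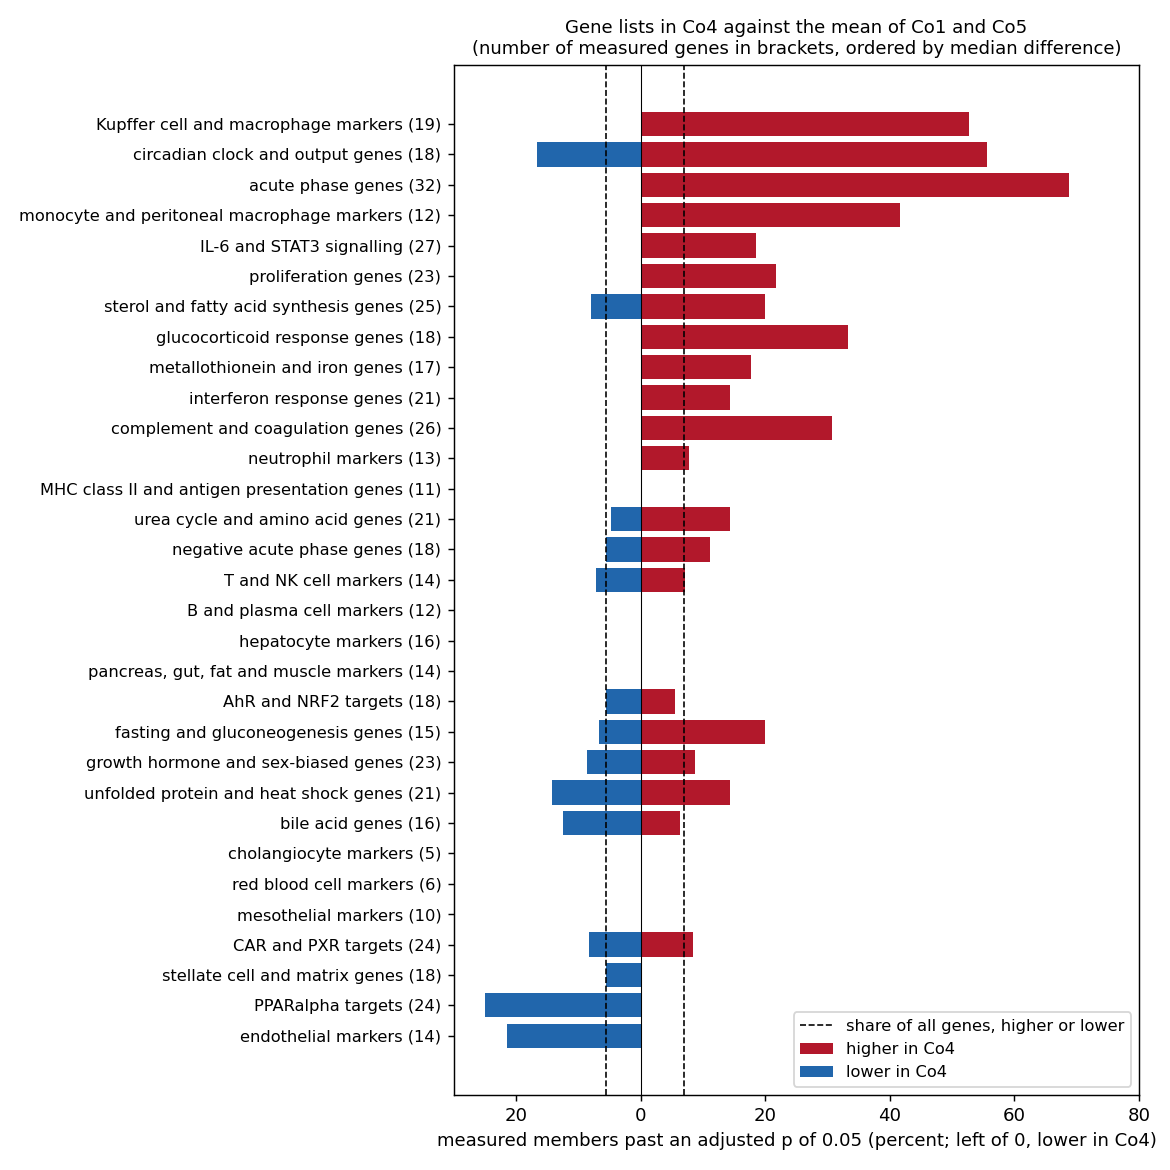
Share of each list's measured genes (number in brackets) past an adjusted p of 0.05 in Co4 against the mean of Co1 and Co5 (x axis, percent; right of 0 higher, left of 0 lower in Co4), with lists ordered by their median difference. Dashed lines are the shares of all 18193 genes, 6.93% higher and 5.57% lower. Acute phase genes (22 of 32), clock genes (10 of 18) and macrophage markers (10 of 19) reach farthest to the right.

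Other genes named by the size of their difference belonged to no list. Coq10b, which encodes a coenzyme Q-binding protein of mitochondria, was 9.69, 9.12, 9.92, 10.29 and 9.86 in Co4, against 6.97, 7.47, 8.07 and 8.06 in Co1 and 7.88, 7.27, 7.61 and 7.30 in Co5. The ranges were a full unit apart (2.20 ± 0.242, adjusted p 1.04e-09). Downward, Mup10, a major urinary protein gene with close copies whose signal may be shared, was 8.14 to 10.03 in Co4, against 10.91 to 11.99 in Co1 and 10.70 to 12.67 in Co5 (−1.97 ± 0.542). It did not pass without replicate 5 of Co4. Lrfn3 (−1.58 ± 0.188), Chka (−1.57 ± 0.316), the choline kinase gene, Tsc22d1 (−1.34 ± 0.300), Tjp3 (−1.28 ± 0.189), a tight junction gene, Fam89a (−1.25 ± 0.236) and Asap2 (−1.22 ± 0.217) completed the largest falls without overlap. Chka was 7.60 to 7.95 in Co4, against 8.33 to 9.37 in Co1 and 9.01 to 10.89 in Co5, and the Co4 livers were nearly equal. Of 6 other probe sets of Tsc22d1, 4 shared its direction.

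Set against each gavage cohort alone, Co4 differed in 5207 probe sets from Co1 (14.9%) and in 817 from Co5 (2.34%). Both counts share the Co4 arrays, so the values of each are given side by side. Lcn2 differed by 7.53 ± 1.03 from Co1 and by 6.17 ± 1.03 from Co5, Saa2 by 6.84 ± 1.14 from Co1 and 5.30 ± 1.14 from Co5, and Saa3 by 4.72 ± 0.584 from Co1 and 4.68 ± 0.584 from Co5. Of 32 acute phase genes 23 were higher than in Co1 and 13 higher than in Co5, with 0 lower in both cases. Of all genes, 8.51% were higher and 7.09% lower than in Co1, and 1.37% higher and 1.31% lower than in Co5. Of 19 macrophage markers 9 were higher than in Co1 and 8 higher than in Co5. Arntl differed by −1.23 ± 0.255 from Co1 and by −2.09 ± 0.255 from Co5, and Dbp by 1.61 ± 0.488 from Co1 and 3.88 ± 0.488 from Co5. Alas1 differed by 2.36 ± 0.466 from Co1 (adjusted p 0.00016) and by 1.55 ± 0.466 from Co5 (adjusted p 0.0546).

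How the counts move with single arrays differed. Against Co1 the count was 3173 without replicate 1 of Co1 and 3620 without replicate 4 of Co4, its lowest values. Against Co5 it was 318 without replicate 2 of Co5, 366 without replicate 5 of Co4, 464 without replicate 4 of Co5, 472 without replicate 4 of Co4, and 507 without replicate 3 of Co4, and it reached 1249 without replicate 2 of Co4.

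Few probe sets passed between the gavage cohorts. Between Co1 and Co5, 61 of 34945 probe sets passed (0.175%), 30 higher (0.0858%) and 31 lower (0.0887%) in Co1, and 4320 had an unadjusted p below 0.05. The count was 0 without replicate 3 of Co5, 1 without replicate 2 of Co5, 4 and 6 without replicates 2 and 1 of Co1, and 103 and 141 without replicates 3 and 4 of Co1. Upp2, a uridine phosphorylase gene, was 10.34 to 11.02 in Co1, against 8.50 to 9.77 in Co5, with no overlap (1.54 ± 0.285, adjusted p 0.0118). Trhde, the gene of an enzyme that degrades thyrotropin-releasing hormone, was 5.18 to 5.47 in Co1, against 3.94 to 4.23 in Co5 (1.24 ± 0.226). Co4 lay near Co5 for this gene, at 3.73 to 3.99. Gsta3, a glutathione transferase gene with close relatives, was lower in Co1 by −1.23 ± 0.257 and Thumpd1 by −1.06 ± 0.238. Sult1d1 (0.87) and Amigo1 (0.72) were higher and Coro1c (−0.99) and Pdhx (−0.90) lower. None of 32 acute phase genes passed, but with only 0.159% of all genes passing, that says little about the list. The median difference of the 32 was −0.28. Of these, 5 had a difference above 0, and 3 were lower in Co1 without overlap. Lcn2 differed by −1.36 ± 1.09 (adjusted p 0.648). Dbp was the 1 of 18 clock genes that passed, by 2.27 ± 0.514 (adjusted p 0.0322), with ranges that overlapped.

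Co2, the vehicle cohort of piperonyl butoxide, a compound also injected daily, at 600 mg/kg, gave the same comparison for another set of 5 C57BL males. Against the mean of Co1 and Co5, 2591 probe sets were higher (7.41%) and 4132 lower (11.8%). The count was 4616 without replicate 1 of Co2 and 4672 without replicate 2, and rose to 7530 without replicate 3. Replicates 1 and 2 had the highest medians of the CMC arrays (5.635 and 5.636) and the lowest upper quartiles (7.44 and 7.38). The mean correlation within Co2 was 0.982 to 0.987. How far this bears on the counts was not tested. Lcn2 was 9.63 to 11.42 in Co2, and only replicate 1 of Co5 reached into that range (4.52 ± 0.879, adjusted p 5.07e-05). Saa3 was higher by 2.89 ± 0.497 and Mt2 by 2.41 ± 0.754, both without overlap, whereas Saa2, at 8.82 to 11.95, did not pass (2.37 ± 0.973, adjusted p 0.0772). Of 32 acute phase genes 13 were higher and 3 lower, of 19 macrophage markers 15 were higher, with Marco at 7.88 to 10.19 in Co2, and of 18 clock genes 5 were higher and 4 lower (8.29% higher and 13.1% lower of all genes). Co1 and Co5 serve in this comparison as well as in that of Co4.

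Co2 also held differences of its own size. Of 24 PPARα targets 18 were lower, with a median of −0.97, and Cyp4a14 was 4.84 to 8.0 in Co2, against 11.28 to 12.47 in Co1 and 10.05 to 13.21 in Co5 (−4.77 ± 0.732, adjusted p 5.31e-07). The acyl-CoA thioesterase gene Acot1 (−3.19 ± 0.405), the retinol saturase gene Retsat (−2.84 ± 0.237) and Vnn1 (−2.72 ± 0.313) were lower without overlap. Lgals3 was higher by 2.97 ± 0.364 and the interferon-induced Gbp8 by 2.74 ± 0.341. Of 13 neutrophil markers 11 were higher, and S100a8 was 7.83 to 12.13 in Co2, against 5.26 to 6.90 in Co1 and 4.61 to 8.21 in Co5. The mean of the neutrophil list was 6.11 to 7.73 in Co2, against 5.09 to 5.39 in Co1 and 4.80 to 5.91 in Co5. Of 11 antigen presentation genes 6 were higher.

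Set directly against Co2, Co4 differed in 9867 probe sets (28.2%), 5333 higher (15.3%) and 4534 lower (13%) in Co4. Its count was above those against either gavage cohort. Co4 was above Co2 in 13 of 32 acute phase genes and below in 1, against 16.1% and 13.6% of all genes. Saa2 was higher in Co4 by 3.70 ± 1.08 (adjusted p 0.00552) without overlap, and Lcn2 by 2.33 ± 0.975 (adjusted p 0.064). Macrophage markers were higher in 0 and lower in 2 of 19, with Marco at −0.10 ± 0.501, and neutrophil markers lower in 9 of 13. Coq10b (2.78 ± 0.268), the oxysterol hydroxylase gene Cyp39a1 (2.92 ± 0.363) and Cyp4a14 (3.51 ± 0.812) were higher in Co4, and the noncoding RNA Neat1 (−2.89 ± 0.453), H2-Aa (−2.59 ± 0.370), Gbp2b (−2.10 ± 0.321) and Tnfaip2 (−1.95 ± 0.299) were lower. Pdk4 (−0.22 ± 0.487) and Elovl3 (−0.61 ± 0.549) did not pass.

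With both cohorts of injected compounds pooled against both of compounds given by gavage, 2167 probe sets passed (6.2%) when each group had its own mean. A further fit took cohort as a random block, which lets the 4 cohorts of 18 mice vary at random around the mean of their route. It used a shared correlation within cohorts of 0.181 for all probe sets. Its degrees of freedom came from the mice and not from the few cohorts. The adjusted p-values thus do not fully allow for variation between cohorts. In this fit 42 passed (0.12%), 20 higher (0.0572%) and 22 lower (0.063%), for 38 genes. Among these 38, 6 belonged to the acute phase list: Saa3 (3.79, adjusted p 0.00418), Orm2 (4.83), Lcn2 (5.69), Mt1 (3.35), Mt2 (3.29) and Fgl1 (1.20). Clec7a (2.37), Vcam1 (2.75), Marco (2.66), Lgals3 (2.62) and Cxcl9 (2.13) were also higher. Vnn1 (−2.01), Retsat (−1.75), Elovl3 (−1.73), Lrfn3 (−1.24) and Insig2 (−1.21) were among the lower ones. Of the clock list only Clock (−0.84, adjusted p 0.012) was among the 38, and Saa2 was not.

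Further groups of the series show where these levels lie. Co3, the vehicle cohort of methapyrilene, a compound given in food, had Lcn2 at 5.39 to 8.27, Saa2 at 7.15 to 10.54, Marco at 5.86 to 6.99 and Arntl at 7.29 to 8.19 (n = 4), ranges that overlapped with those of Co1 and Co5. The vehicle cohort of CITCO in hCAR/hPXR mice, whose mouse receptors CAR and PXR are replaced by the human ones, had Lcn2 at 11.98 to 14.11, Saa2 at 13.93 to 14.85, Marco at 7.37 to 9.94, Arntl at 5.10 to 5.93 and Dbp at 11.50 to 12.29 (n = 5). Each of these ranges overlapped with that of Co4. C57BL mice injected with CITCO itself, whose own control is Co4, had Lcn2 at 7.22 to 10.41, Saa2 at 9.15 to 13.21 and Mt2 at 8.35 to 10.67 (n = 5). For Lcn2 and Saa2 all 5 were below all Co4 livers. Their clock genes overlapped with the ranges of Co4, with Arntl at 5.29 to 6.12, Dbp at 11.45 to 12.31 and Per1 at 7.55 to 9.49. The mean of the acute phase list per liver was 11.86 to 12.89 in Co4, 11.07 to 11.76 in Co2, 10.24 to 10.64 in Co1 and 10.28 to 11.60 in Co5.

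C57BL males of the same series that received corn oil (n = 5) or water (n = 5) for 28 days had some of these levels without CMC. Lcn2 was 6.09 to 9.35 in corn oil and 5.25 to 7.16 in water livers, Saa2 was 8.31 to 11.19 in corn oil and 7.91 to 10.74 in water livers, and Saa3 was 7.62 to 9.10 in corn oil and 7.58 to 9.10 in water livers. All of these were below every Co4 liver. Mt2 was 8.95 to 12.52 in corn oil livers, a range that overlapped with Co4, and 7.22 to 8.31 in water livers. C1qb, at 8.76 to 9.61 in corn oil and 8.94 to 9.62 in water livers, lay within the range of Co4 in both. The corn oil group also overlapped with Co4 for Arntl (5.87 to 6.17), Dbp (11.61 to 12.17), Ciart (7.15 to 8.53), Pdk4 (5.59 to 6.59), Coq10b (10.0 to 10.36) and Lrfn3 (5.14 to 5.66). In water livers Arntl was 5.98 to 7.40, Pdk4 6.27 to 7.39, Coq10b 8.88 to 9.73 and Lrfn3 5.73 to 6.32, each overlapping with Co4 as well. Their Arntl and Pdk4 ranges also overlapped with those of Co1 and Co5, whereas their Coq10b and Lrfn3 ranges did not. No test of Co4 against the corn oil or water group was run.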

How the data were processed

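The deposited table held log2 values of expression for 45037 probe sets. The authors computed these log2 values with RMA, as the submitters' processing notes list it, and the sources used here do not give its version. RMA equalises the distributions of arrays, which hides a shift common to most genes, and values near the ends of the range of 2.61 to 15.34 are compressed. Affymetrix mouse arrays were hybridised with liver RNA labelled by the 3'IVT Express kit, per the labels' protocols. No 2 columns were identical, and each was matched to 1 sample by its name. Precision is limited by having 4 or 5 arrays in a cohort.

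Probe sets were named from the annotation table of the platform: 34945 had 1 gene symbol, 932 several, and 9160 were unnamed here. For each gene, the single-symbol probe set brightest on average across the 91 arrays stood in (18193 genes, 9010 with more than 1 probe set). A means model with 19 groups, which left 72 residual degrees of freedom, was fitted to all arrays with limma 3.58.1 in R 4.3.3, with moderated, two-sided tests, a mean-variance trend, and Benjamini-Hochberg adjustment over the 34945 probe sets of each comparison. A probe set passed at an adjusted p below 0.05. Labels do not say whether mice were caged or killed together, and p-values measure the spread between the mice of these groups. The main comparison was also run on simulated data. Of changes of 0.5 log2 units 67.2% were recovered, and of changes of 1 unit 98.5%. Of the calls, 7.33% were false. Alternatives were fits to fewer groups, 1 probe set per gene, a filter on dim probe sets, median centring, no trend, a robust fit, array weights, replicate or cohort as a block, and leaving out each array.

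The cohorts, the 31 gene lists (502 of 570 genes measured) and the alternatives were chosen with earlier results of these data known, so counts within lists are descriptions. The rule named Lcn2, Saa2, up to 12 genes each way with the largest differences that passed without overlap, up to 5 genes per list, up to 4 each way per other comparison, and markers of cell types, time, fasting and stress. List members past the threshold were also named in full, after their values were seen. Promoters came from RefSeq on GRCm38.p6.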

Additional observations from a re-analysis of the deposited data

Results flagged for a closer look

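Among 330 sets of values, 1 per described gene and cohort of 4 or 5 mice, a single liver stood apart from the rest of its cohort in 18, by a gap large against the cohort's range. The gap was held to Dixon's critical value, which is set so that chance passes it in about 1 in 20 sets. The count of 18 in 330 lies near that rate, so the flags are descriptions of single values, and no cause was tested. In Co4, all 5 fell on replicate 4. Pfkfb3 was 9.43 there, against 6.82 to 7.39 in the other Co4 livers, Fkbp5 was 11.51, against 8.82 to 9.43, Mat1a was 14.18, against 13.18 to 13.47, and Fn1 was 13.66, against 13.06 to 13.19. Dbp was the reverse, at 9.95, against 11.82 to 12.15.

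In Co1, replicate 1 stood apart for 5 genes. Lpin1 was 8.63, against 9.53 to 9.62 in the other Co1 livers, Pcna was 8.77, against 9.12 to 9.14, and Thumpd1 was 4.69, against 5.97 to 6.12. Msln was 4.93, against 4.30 to 4.36, and Gbp8 was 5.57, against 4.91 to 5.00. Orm2 was 8.10 in replicate 2 of Co1, against 6.12 to 6.32, and Gbp2 was 4.37 in replicate 3, against 5.13 to 5.24.

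In Co5, Cish was 9.83 in replicate 1, the liver with the highest Lcn2 and Saa2 of its cohort, against 6.64 to 6.96 in the other Co5 livers, and Bcl6 was 9.55 there, against 10.56 to 10.70. Lpin1 was 9.41 in replicate 2, against 9.92 to 9.95, and Asns was 8.83 in replicate 3, against 7.07 to 7.20. In replicate 4, Eng was 8.57, against 7.95 to 8.05, and Serpina6 was 11.33, against 10.54 to 10.65.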

How the results depend on the processing

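Of 178 named genes, 93 were past the threshold in Co4 against the mean of Co1 and Co5. Of these 93, 58 passed under all 23 alternative settings and 64 when any single array was left out. The direction of 0 of the 93 reversed in any setting. Some named genes that did not pass changed direction, such as Nr1d1 in 10 settings and H2-Aa in 7. Counts of probe sets moved more. For Co4 against the mean of Co1 and Co5 (4134) they were 2593 with only the 6 groups given CMC, 2336 with 1 probe set per gene, 2496 with cohort as a random block, and 2577 to 4539 without single arrays. Against Co1 alone (5207) they were 3050 with only the groups compared, 3358 with the CMC groups, 2903 per gene, 3295 with array weights, and 3173 to 5646 without single arrays. Against Co5 (817) they were 165, 386, 533 and 257 in the same settings, and 318 to 1249 without single arrays. Between Co1 and Co5 (61) they were 27, 5, 29 and 33, and 0 to 141. For Co2 against the mean of Co1 and Co5 (6723) they were 4423 with only the groups compared, 4036 per gene, 4083 with array weights, and 4616 to 7530. For Co4 against Co2 (9867) they were 6502 with only the groups compared, 5469 per gene, and 8031 to 10697. Counts per gene are lower by construction, since fewer features are tested, and for the other settings the cause was not tested. Median centring, the filter on dim probe sets, no trend and a robust fit gave counts within 1.5 times. Of 12 same-numbered pairs among Co4, Co1 and Co5, 1 had a correlation of deviations over 0.1 (−0.344 to 0.139). With Co2 it was 8 of 25 (up to 0.302), with no 2 cohorts over 0.1 in every pair. For replicates 1 to 4 of Co2 and Co1 the correlations were 0.302, 0.049, 0.256 and 0.189. For replicates 1 to 5 of Co4 and Co2 they were 0.138, 0.224, 0.158, −0.005 and −0.099. Whether replicate numbers pair the mice was not tested. With replicate number as a block the counts were 1656, 2069, 72, 11, 4197 and 6740 in the order of the comparisons above. In that setting 19 named genes were no longer past the threshold. The pooled comparison of Co4 and Co2 with Co1 and Co5 was chosen after seeing the data, and its count of 2167 became 42 with cohort as a random block. Signal near the upper end of the range limits the size of the largest differences.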
